A study of Mus musculus with 3 samples.

Results

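The 10 elastic fibre genes examined here code for elastin (Eln), the fibrillins Fbn1 and Fbn2, the microfibril-associated protein Mfap5, the fibulins Fbln1, Fbln2 and Fbln5, the elastin- and fibulin-binding glycoprotein Emilin1, and the cross-linking enzymes Lox and Loxl1. Their members were taken by name: every probe of the array that is not a control and carries one of the 10 symbols. This gave 13 of 41174 probes, for 10 of 19750 named genes. Fbn1, Fbln1 and Fbln5 had 2 probes each and the other members 1. A test needed a signal well above background on 2 or more of the 3 arrays, in at least 1 of the channels. Of the 13 probes 12 met this, so that each of the 10 genes had a tested probe.

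The cells were primary mouse aortic endothelial cells, named so by the labels, from Pim1 knockout mice and from wild-type mice of the same FVB/N strain. Pim1 codes for a serine/threonine kinase. The labels gave the donors of both genotypes as female and 12 weeks old. Cells of both genotypes grew on gelatine-coated dishes in medium with serum, and RNA was taken 24 hours after seeding. These are thus cultures of isolated cells and not vessel wall. Each of 3 two-colour arrays held knockout RNA in Cy5 and wild-type RNA in Cy3, and all ratios are log2 of knockout over wild type. Dyes were not swapped, so a dye effect cannot be told apart from genotype. The labels called the arrays biological replicates, but whether the wild-type RNA was 1 pool is not stated. The p-values below therefore cover the spread of 3 arrays and no more.

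Elastic fibres give the arterial wall its recoil. Soluble tropoelastin is laid down on a scaffold of fibrillin microfibrils, guided by fibulins and by Emilin1 at the interface of both, and copper-dependent lysyl oxidases then join it into an insoluble polymer. Vascular smooth muscle cells make most of the elastin of the aorta, fibroblasts make elastic fibre proteins too, and endothelial cells add to the innermost layers.

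Some measures of the whole dataset bear on how the members can be read. The knockout channel had 53.8% to 57.2% of probes well above background and the wild-type channel 58.4% to 62.5%. Across probes, which are not independent replicates, arrays 2 and 3 had the closest log2 ratios (r = 0.905), while array 1 stood further from either (r = 0.681 and 0.699). Pim1 itself read −1.04 ± 0.10 (SD, n = 3 arrays), 2.05-fold lower in the knockout, where its probe was still well above background on 3 of 3 arrays. The removed part of the gene is not stated, and a probe outside it does not check the deletion. Knockout RNA gave no Xist signal well above background (at least 168-fold lower than wild type). Wild-type RNA gave no signal well above background for Kdm5d, Ddx3y and Eif2s3y of chromosome Y (at least 4.68-, 12.1- and 28.1-fold higher in the knockout). These genes go against the shared label of sex, so sex and genotype cannot be told apart in any value that follows. The defining endothelial markers Pecam1, Cdh5, Tie1, Erg and Sox17 were above background on no array in either channel, and of 18 endothelial markers 7 could be tested, of which 2 rose and 1 fell. The summed intensities of all 18, as log2, came to 13.13 to 13.54 in the knockout channel and 12.39 to 12.55 in the wild-type channel. These sums rest mostly on Eng, Flt1 and Egfl7. Mean log2 levels in knockout and wild type were 11.67 and 9.16 for Eng, 11.15 and 9.74 for Egfl7, and 11.49 and 11.22 for Flt1. Flt1 was not called. In bulk RNA, fewer cells of a type and less RNA per cell cannot be told apart.

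Sequences of some member probes and promoters are shown first. The 60-base probe of Loxl1 reads the member with the steadiest rise, and that of Emilin1 a member whose result depended on array 1. Both are given 5′ to 3′ as in the array files, in lower case. The Loxl1 probe lies at chr9:58088900-58088959 on the minus strand, and the Emilin1 probe is placed at chr5:31196753-31197209 on the plus strand, a span longer than the probe itself (mm8, the build of the array files).
Loxl1: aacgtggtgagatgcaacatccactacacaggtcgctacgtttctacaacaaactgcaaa
Emilin1: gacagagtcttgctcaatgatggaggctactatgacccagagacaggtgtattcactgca

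The promoter table drawn from RefSeq (GRCm38.p6) held 5 of the 10 members: Emilin1, Fbln1, Fbln2, Fbln5 and Fbn1. Eln, Fbn2, Lox, Loxl1 and Mfap5 were not among them. The 250 bases before the start of Fbln1, the member with the largest change, and of Fbln2, a fibulin that was not called, are given 5′ to 3′ on the strand of the gene. Capitals mark each match to 5 motifs searched on both strands: the TATA box TATAAA, the GC box GGGCGG, the palindromic E-box CACGTG, the AP-1 site TGANTCA and the SMAD box CAGAC. None of the matches printed overlaps another. The Fbln1 window lies at chr15:85205699-85205948 and the Fbln2 window at chr6:91212514-91212763, both on the plus strand.
Fbln1: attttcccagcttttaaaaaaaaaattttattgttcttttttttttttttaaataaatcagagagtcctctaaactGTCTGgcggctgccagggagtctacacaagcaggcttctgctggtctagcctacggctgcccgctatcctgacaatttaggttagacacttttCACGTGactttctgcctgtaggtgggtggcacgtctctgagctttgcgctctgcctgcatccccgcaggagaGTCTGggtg
Fbln2: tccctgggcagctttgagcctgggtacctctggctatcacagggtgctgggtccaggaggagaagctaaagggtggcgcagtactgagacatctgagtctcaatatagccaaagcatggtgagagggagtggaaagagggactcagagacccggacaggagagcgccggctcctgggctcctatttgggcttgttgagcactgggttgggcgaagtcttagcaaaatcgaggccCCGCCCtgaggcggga

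The Fbln1 window holds 1 CACGTG, from 81 to 76 bases before the start, and 2 matches to CAGAC on the reverse strand (GTCTG), from 174 to 170 and from 9 to 5 bases before it. The Fbln2 window holds 1 match to GGGCGG on the reverse strand, from 16 to 11 bases before the start. Of 32526 promoter windows of the same length, 6.04% held CACGTG, 42.2% CAGAC, 33.0% GGGCGG, 12.3% TATAAA and 6.73% TGANTCA. A second annotated start of Fbln1 has a window at chr15:85205758-85206007 that overlaps the first and holds the same CACGTG. These matches describe the letters of the windows and were not tied to the ratios.

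Of the 10 members, 3 were higher and 1 was lower in the knockout (limma, Benjamini-Hochberg adjusted p under 0.05). Fbln1, Loxl1 and Lox rose 4.79-fold, 3.22-fold and 2.65-fold, and Eln was 1.58-fold lower. Over all 13447 genes tested, 22.0% were called, 9.70% as higher and 12.3% as lower, so that 4 of 10 members stood beside a background of about 2 in 10. By probe, 6 of the 12 tested member probes were called, beside 17.1% of all 25076 tested probes. Changes beyond 2-fold were found for 3 of the 10 members and for 6.95% of all genes. The median log2 ratio was −0.18 over the members and −0.02 over all genes. Among all tested genes, Fbln1 lay at the 99.6th percentile of the log2 ratio, Loxl1 at the 99.2nd, Lox at the 98.9th and Eln at the 8.07th.

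**Figure D1:**
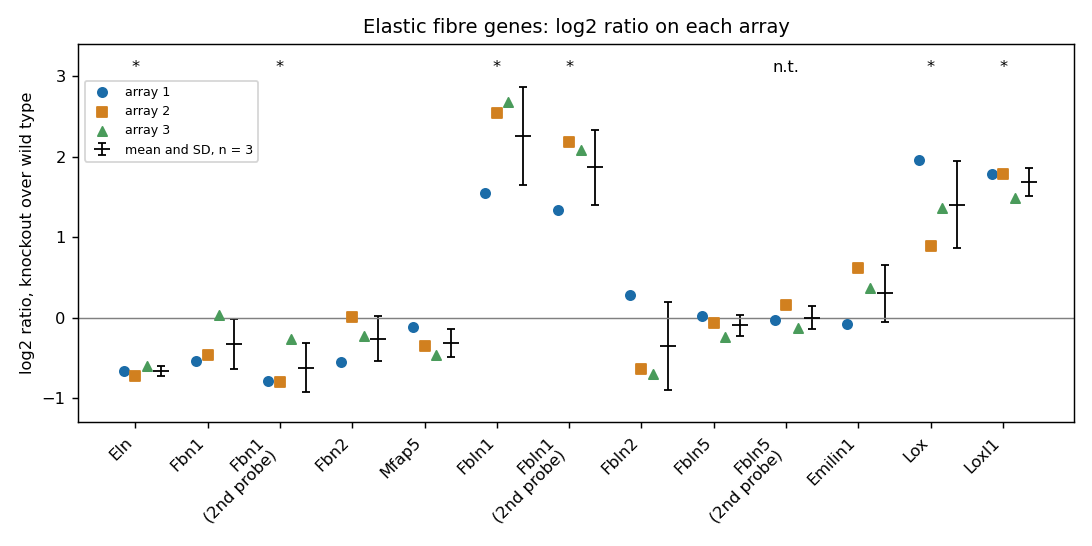
Log2 ratio of knockout over wild type (vertical axis) for each of the 13 probes, with 1 point per array and the mean and SD of 3 arrays as a bar beside them; an asterisk marks an adjusted p under 0.05 (limma, over all tested probes) and n.t. a probe that was not tested. Both Fbln1 probes, Lox and Loxl1 lie above 0 on every array, and the array 1 points of Fbln1 and Lox lie on opposite sides of the other 2.

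Elastin is the bulk protein of the fibre. The Eln probe (chr5:134987886-134987945) read log2 levels of 6.78, 6.61 and 6.77 in the knockout channel on arrays 1, 2 and 3, and of 7.44, 7.33 and 7.37 in the wild-type channel. Each knockout level lay below each wild-type level. The log2 ratios were −0.66, −0.72 and −0.60, with a mean of −0.66 ± 0.06 (SD, n = 3 arrays; limma adjusted p = 0.0102). The probe was dim: the knockout signal exceeded its local background of 56.0 to 60.5 by 54.2, 37.5 and 41.9 intensity units, although the scanner software rated both channels as well above background on each array. The size of the fall therefore depended on how background was handled, reading −1.08 without the normexp offset and −1.39 with the ratio of the scanner software. The call was lost without replicate 2 (adjusted p = 0.106) and without replicate 3 (0.0943).

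Smooth muscle markers, which belong to the main elastin-making cells of the aorta, were examined too. Of 12 smooth muscle markers tested 1 rose and 5 fell (adjusted over all genes), with a median of −0.54. Over all genes tested 9.70% were called higher and 12.3% lower. The summed log2 level of all 13 listed spanned 15.14 to 15.41 in the knockout and 15.30 to 15.85 in the wild-type channel. It rests mostly on Acta2. Myh11, the myosin heavy chain of contractile muscle, was detected above background in wild-type RNA on 3 arrays and in knockout RNA on none. Its mean log2 levels were nonetheless close, 6.38 in the wild type and 6.34 in the knockout, and the channels overlapped. The ratio of −0.04 ± 0.05 was not called (limma adjusted p = 0.825 over all genes). Myocd, the activator of the muscle programme, was above background only in the wild-type channel. It read 2.22-fold lower in the knockout (−1.15 ± 0.32, called), a size that is not firm. Myl9 (−2.11 ± 0.56), Cnn1 (−1.45 ± 0.40) and Mylk (−1.24 ± 0.09), detected in both channels on all arrays, were called lower. Synpo2 (−1.41 ± 0.40) was called lower too but was above background only in the wild-type channel. Lmod1 (0.67 ± 0.23) was called higher. Acta2 (−0.29 ± 0.39) and Tagln (−0.80 ± 1.27) were not called. The part of these markers in the Eln value was not tested.

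The fibrillins and Mfap5 form the microfibril scaffold, and none of the 3 genes was called. Fbn1, the main fibrillin of adult vessels, was read by 2 probes that do not overlap (chr2:124992432-124992491 and chr2:124992959-124993018). The first, brighter probe read log2 levels of 11.35, 11.32 and 11.42 in the knockout and 11.89, 11.78 and 11.39 in the wild type. The wild-type level was higher on arrays 1 and 2 and level with the knockout on array 3, so that the channels overlapped. The mean log2 ratio of the first probe was −0.32 ± 0.31 (limma adjusted p = 0.183). The second probe read −0.78, −0.80 and −0.27, a mean of −0.62 ± 0.30, and passed on its own (limma adjusted p = 0.0375). Both probes gave their smallest difference on array 3, and they disagreed on the call. The call of the second probe was lost with median centring (adjusted p = 0.159), with no filter on dim probes (0.0611), without replicate 2 (0.215) and without replicate 3 (0.0731).

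Fbn2, the fibrillin better known from development, sat at the edge of detection. It was well above background on no array in the knockout channel and on 2 of 3 in the wild-type channel. Its log2 ratios were −0.55, 0.00 and −0.23, with a mean of −0.26 ± 0.28 (limma adjusted p = 0.247). The ratio of the scanner software put it at −1.70 and called it (adjusted p = 0.00969). It was not testable without replicate 1, without replicate 3 or where both channels had to be above background.

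Mfap5 codes for a small glycoprotein that binds fibrillin. Its probe (chr6:122494539-122494598) read log2 levels of 7.29, 7.29 and 7.25 in the knockout and 7.41, 7.65 and 7.72 in the wild type. All 3 knockout levels lay below all 3 wild-type levels, as the panel of channel levels shows. The ratios of −0.12, −0.36 and −0.47 averaged −0.31 ± 0.18 and did not pass (limma adjusted p = 0.112). Without replicate 1 the mean was −0.41 and passed (adjusted p = 0.0056). Channel levels of the 2 genotypes did not overlap for 5 of the 10 members (Eln, Mfap5, Fbln1, Lox and Loxl1) and for 39.2% of all genes tested.

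**Figure D2:**
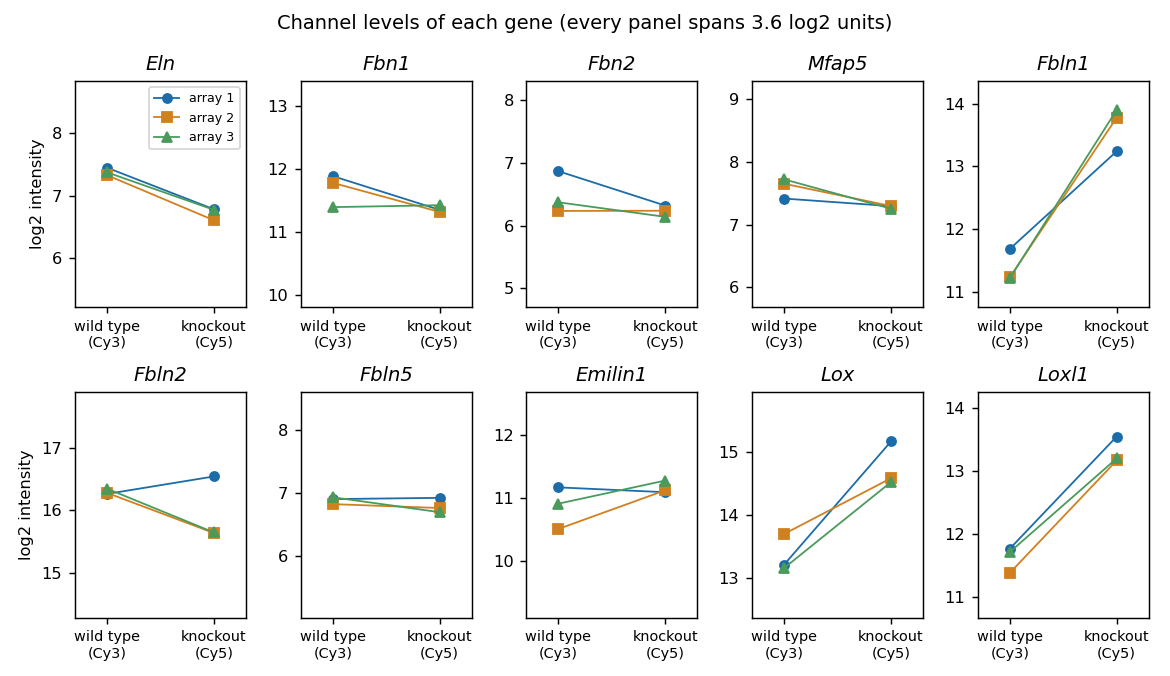
Normalised log2 intensity (vertical axis) of each member's brightest tested probe in the wild-type (Cy3) and knockout (Cy5) channels, with 1 line per array and panels that all span the same number of log2 units. The lines of Fbln1, Lox and Loxl1 rise on all 3 arrays, those of Eln and Mfap5 fall on all 3, and the array 1 line of Fbln2 runs against the other 2.

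The fibulins are secreted glycoproteins that link elastin, microfibrils and basement membranes, and 1 of the 3 members was called. Fbln1, which binds elastin, fibronectin and nidogen, rose most of all members. Its brighter probe (chr15:85113334-85113393) read log2 levels of 13.24, 13.78 and 13.90 in the knockout and 11.69, 11.23 and 11.22 in the wild type. Every knockout level was above every wild-type level, and array 1 showed the lowest knockout and the highest wild-type level. The ratios were 1.56, 2.54 and 2.68, with a mean of 2.26 ± 0.61 (4.79-fold, limma adjusted p = 0.00394). The other probe (chr15:85113190-85113250), which does not overlap it, gave 1.34, 2.18 and 2.08, a mean of 1.87 ± 0.46 (3.65-fold, limma adjusted p = 0.00349). Fbln1 kept its call in all 15 alternatives, with values from 2.05 to 2.61.

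Fbln2, a fibulin of vessel walls that binds fibrillin and basement membrane proteins, was among the bright probes (chr6:91237628-91237687). Its log2 levels were 16.54, 15.64 and 15.65 in the knockout and 16.26, 16.28 and 16.34 in the wild type. The wild-type channel was nearly constant, and the knockout was above it on array 1 and below it on arrays 2 and 3. The ratios of 0.28, −0.64 and −0.70 averaged −0.35 ± 0.55 and did not pass (limma adjusted p = 0.32). Without replicate 1 the mean was −0.67 and passed (adjusted p = 2.97e-05). With median centring in place of loess the sign turned, to 0.03 (adjusted p = 0.969). The sign of Fbln2 therefore differed between arrays and between normalisations.

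Fbln5, which binds tropoelastin and carries it to the microfibrils, was dim and showed no difference that passed. Its tested probe (chr12:102147718-102147777) read log2 ratios of 0.02, −0.06 and −0.24, a mean of −0.09 ± 0.13 (limma adjusted p = 0.588), and the channels overlapped. The other Fbln5 probe was above background in neither channel on any array and was not tested. The knockout signal of the tested probe exceeded its local background by 63.8, 49.2 and 37.0 intensity units, so a small change may not have been measurable.

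Emilin1 codes for a glycoprotein at the border of elastin and microfibrils that restrains the maturation of TGF-beta. Its log2 levels were 11.09, 11.13 and 11.28 in the knockout and 11.17, 10.51 and 10.91 in the wild type. The knockout was higher on arrays 2 and 3 and the channels overlapped. The ratios of −0.08, 0.62 and 0.37 averaged 0.30 ± 0.35 and did not pass (limma adjusted p = 0.241). Without replicate 1 the mean was 0.49 and passed (adjusted p = 0.00135). Emilin1, Fbln2 and Mfap5 thus had in common that they were called only when array 1 was left out or given a lower weight.

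Lox and Loxl1, the enzymes that oxidise lysines of tropoelastin so that cross-links can form, both rose. The Lox probe, on chromosome 18, read log2 levels of 15.17, 14.59 and 14.53 in the knockout and 13.21, 13.70 and 13.16 in the wild type. The lowest knockout level was above the highest wild-type level. The ratios were 1.96, 0.89 and 1.37, with a mean of 1.41 ± 0.54 (2.65-fold, limma adjusted p = 0.0122), largest on array 1, where Fbln1 was smallest. Without replicate 3 the mean was 1.42 and the call was lost (adjusted p = 0.0962).

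Loxl1, which is targeted to the fibre by Fbln5, had the lowest adjusted p of the members. Its probe, shown above, read log2 levels of 13.55, 13.17 and 13.20 in the knockout and 11.77, 11.38 and 11.71 in the wild type. All knockout levels were above all wild-type levels by more than 1 log2 unit. The ratios were 1.79, 1.79 and 1.49, a mean of 1.69 ± 0.17 (3.22-fold, limma adjusted p = 0.000898). The call held in all 15 alternatives, with values from 1.64 to 1.88.

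Fibroblast markers were examined beside these rises. Of 13 fibroblast markers tested 7 rose and 1 fell (adjusted over all genes), with a median of 0.62. The summed log2 level of all 15 listed was 19.01 to 19.08 in the knockout and 18.79 to 18.90 in the wild-type channel. S100a4, which was not called, is its largest part, with mean log2 levels of 18.22 in the knockout and 17.98 in the wild type. Col1a1 (16.41 and 15.80) and Col1a2 (16.26 and 16.96) come next, in opposite directions. Of 11 mesothelial and epithelial markers tested none rose and 8 fell, with a median of −1.41. The summed log2 level of all 13 listed was 13.48 to 13.82 in the knockout and 16.31 to 16.63 in the wild type. It rests mostly on Msln, Krt19 and Upk1b, of which Upk1b was not called. The collagen genes within the fibroblast list did not share 1 direction: Col3a1 read 3.09 ± 1.32 and Col1a2 −0.70 ± 0.15, both called. The fibroblast markers Tcf21 and Fap were above background on no array. Of the other lists, 1 of 5 pericyte markers tested rose and 2 fell, as did 2 of 4 markers of macrophages and leukocytes and 4 of 6 of chondrocytes, with none rising in the last 2 lists. The part of these markers in the rises of Fbln1, Lox and Loxl1 was not tested.

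The relatives of the members were set beside them. In the lysyl oxidase family Lox and Loxl1 rose and the other 3 genes fell. Loxl2, Loxl3 and Loxl4 form the branch of the family with scavenger receptor domains. Loxl2 read −1.20, −1.18 and −1.34 on the 3 arrays, a mean of −1.24 ± 0.09, and a second probe gave −1.85 ± 0.08. Loxl3 read −0.89 ± 0.07. Loxl4 read −1.59, −1.88 and −1.96, a mean of −1.81 ± 0.20, and its second probe −1.48 ± 0.12. All 3 were called (limma adjusted p = 0.00113, 0.00305 and 0.000573 over all genes), and remained so in all 15 alternatives.

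**Figure D3:**
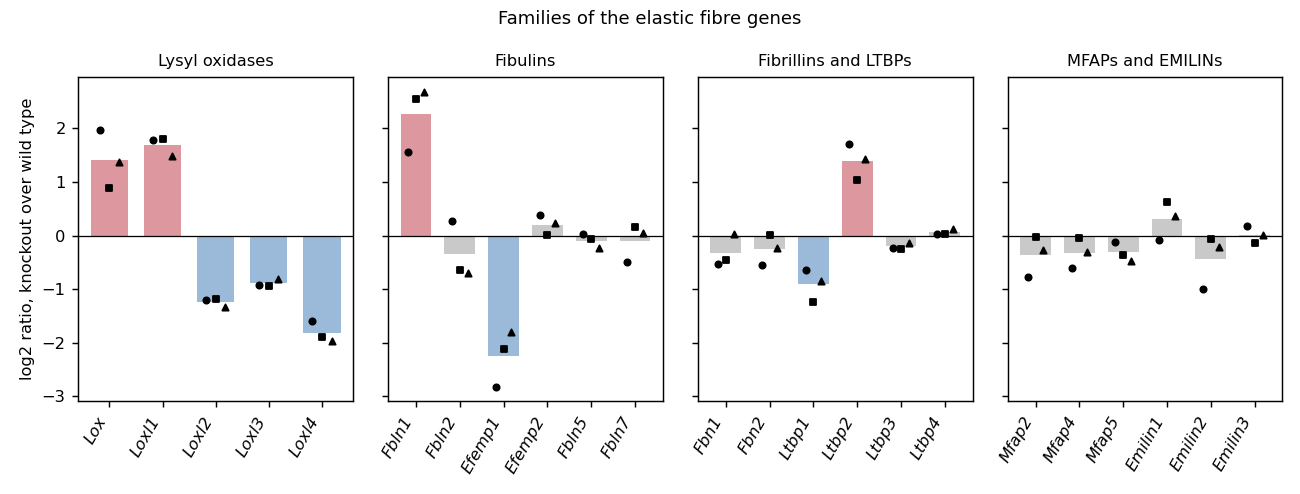
Mean log2 ratio of knockout over wild type (bars, from 0) and the value on arrays 1, 2 and 3 (circle, square, triangle) for the families of the elastic fibre genes, coloured red or blue where a gene was called higher or lower (limma, adjusted over all genes) and grey otherwise. Lox and Loxl1 stand above 0 and Loxl2, Loxl3 and Loxl4 below it, while 5 of the 6 MFAP and EMILIN bars lie within 0.4 of 0 and none of the 6 was called.

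Among the fibulins, Efemp1 (fibulin 3) fell by 2.25 on the log2 scale (SD 0.52, 4.74-fold lower), against the rise of Fbln1. Efemp2, the fibulin that brings Lox to tropoelastin, read 0.20 ± 0.19 and Fbln7 −0.10 ± 0.35, neither called. Among the latent TGF-beta binding proteins, which share domains with the fibrillins, Ltbp2 rose 2.62-fold (1.39 ± 0.34) and Ltbp1 fell by 0.91 (SD 0.30). Ltbp3 (−0.20 ± 0.06) and Ltbp4 (0.06 ± 0.06) were not called. The fall of Ltbp1 was no longer called with median centring (adjusted p = 0.0631), without replicate 2 (0.0647) or without replicate 3 (0.0814). Of Mfap2 (−0.36 ± 0.38), Mfap4 (−0.32 ± 0.28), Emilin2 (−0.43 ± 0.50) and Emilin3 (0.01 ± 0.16) none was called.

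The wider pathway was described with 6 lists that hold 87 genes on the array beside the members. Of these 74 were tested, 12 rose and 26 fell, with a median of −0.20 (all counts adjusted over all genes), beside 9.70% higher and 12.3% lower over all genes tested. Counts of 1 in the single lists are near those shares. Other small counts, such as 2 of 15 or 3 of 18 genes called higher, are not far from them. With median centring 12 rose and 20 fell, and over all called genes the share called higher was 57.6% against 44.1% with loess. Without replicate 2 and without replicate 3 the count of risen genes was 5 each time, against 17 without replicate 1. Where a called gene had further probes, 22 of 22 such probes of 17 genes had the same sign, although some were far smaller, as for Adamtsl3 (−0.28 against −2.70), Tnxb (−0.11 against −1.27) and Tgfbr2 (−0.27 against −1.12).

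Of 18 genes of microfibril and fibre assembly 3 rose and 4 fell, with a median of −0.18. Ltbp2, the proteoglycan versican, Vcan (1.02 ± 0.39), and fibronectin, Fn1 (0.52 ± 0.26), on which fibrillin assembles, were higher. Further Vcan probes read only 0.12 ± 0.06 and 0.38 ± 0.17 and did not pass (limma adjusted p = 0.43 and 0.0665 over all probes). Efemp1, nephronectin, Npnt (−1.98 ± 0.36), the tenascin Tnxb (−1.27 ± 0.31) and Ltbp1 were lower. Vcan lost its call without replicate 2 (adjusted p = 0.0864) or without replicate 3 (0.0969), and Fn1 did too (0.155 and 0.215). Fn1 also lost it with an offset of 0 (adjusted p = 0.0564), the scanner software's ratio (0.0925), scaling between arrays (0.0624) and no filter on dim probes (0.0549).

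Of 11 genes of cross-linking and its supply 2 rose and 5 fell, with a median of −0.46. Beside the 3 lysyl oxidases that fell, Pcolce2, an enhancer of procollagen processing, was 10.2-fold lower (−3.35 ± 0.07). Slc2a10, a transporter whose loss causes arterial tortuosity, was 4.14-fold lower (−2.05 ± 0.18). Bmp1, the protease that activates Lox from its precursor, rose 1.43-fold (0.52 ± 0.12), and Postn, a scaffold for Bmp1 that is also a fibroblast marker here, rose 2.59-fold (1.37 ± 0.01). Bmp1 lost its call without replicate 2 (adjusted p = 0.156), without replicate 3 (0.128) and with the scanner software's ratio (0.0645). Atp7a, the pump that loads Lox with copper, read 0.06 ± 0.22 and the copper chaperone Atox1 −0.27 ± 0.21, neither called.

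Of 8 genes that process fibrillin or regulate microfibrils 1 rose and 5 fell, with a median of −1.05. ADAMTS-like proteins lack the protease domain of the ADAMTS enzymes, and some of them bind fibrillin. Their tested genes fell: Adamtsl3 (−2.70 ± 0.48), Adamtsl4 (−1.45 ± 0.17), Adamtsl5 (−1.39 ± 0.24) and Thsd4, also called ADAMTSL6 (−1.27 ± 0.15). Adamtsl1 and Adamtsl2 were above background on no array in either channel and were not tested. Further Adamtsl5 probes read −1.21 ± 0.22, which passed, and −0.38 ± 0.22, which did not (limma adjusted p = 0.00338 and 0.0896 over all probes). The other Thsd4 probe read −0.26 ± 0.11 and did not pass (limma adjusted p = 0.13 over all probes). Furin, the convertase that trims profibrillin, rose by 0.59 (SD 0.11), and the related convertase Pcsk6 fell by 0.83 (SD 0.12). Furin lost its call without replicate 2 (adjusted p = 0.0852) or without replicate 3 (0.123). Pcsk6 lost it without replicate 2 (0.0548) and with median centring (0.0552).

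**Figure D4:**
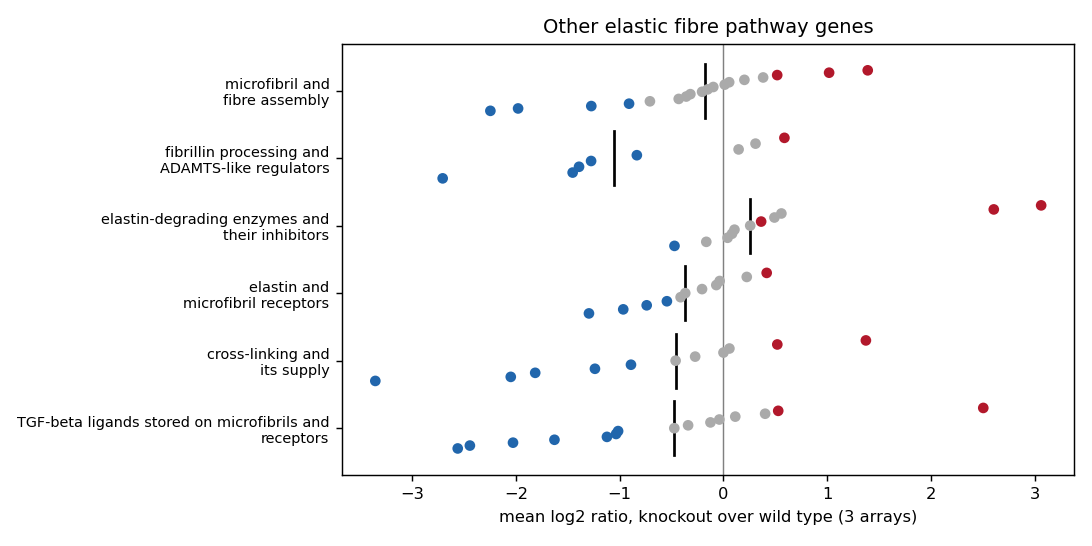
Mean log2 ratio of knockout over wild type (horizontal axis) of each tested gene in the 6 lists of other elastic fibre pathway genes, red where called higher, blue where called lower (limma, adjusted over all genes) and grey otherwise, with a black bar at the median of each list. The median is lowest for fibrillin processing and ADAMTS-like regulators, at −1.05, and above 0 for elastin-degrading enzymes and their inhibitors alone, at 0.26.

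Of 11 elastin-degrading enzymes and inhibitors 3 rose and 1 fell, with a median of 0.26. The secreted inhibitor of neutrophil elastase Slpi rose 8.36-fold (3.06 ± 0.39) and cathepsin K, Ctsk, an elastin-cutting protease, 6.09-fold (2.61 ± 0.36). Ctsl (0.36 ± 0.05) was called higher and Timp2 (−0.47 ± 0.17) lower. Both lost the call without replicate 2 (adjusted p = 0.205 and 0.203) and without replicate 3 (0.213 and 0.207), and Timp2 read −0.04 with median centring (adjusted p = 0.898). In all, Ctsl lost it in 7 of 15 alternatives, also with no background subtraction (0.0511), an offset of 0 (0.0957), the scanner software's ratio (0.125), the filter on both channels (0.0536) and the trend with robust variances (0.0653). Timp2 lost it in 5, also with an offset of 0 (0.0614) and the software's ratio (0.075). The elastase genes Mmp9, Mmp12 and Elane were above background on no array. The matrix metalloproteinase Mmp14 read 0.56 ± 0.42 on its brighter probe, which was not called, and 1.08 ± 0.22 on the other, which passed (limma adjusted p = 0.00469). The list median is the value of cathepsin B, Ctsb, on its brighter probe (0.26 ± 0.37, not called). The other Ctsb probe had the opposite sign, −0.47 ± 0.14, and passed (limma adjusted p = 0.0355 over all probes). The sign of Ctsb, and with it the size of this median, therefore depended on the probe.

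Of 11 receptors of elastin and microfibrils 1 rose and 4 fell, with a median of −0.37. Galectin 3, Lgals3, fell by 0.96 (SD 0.17), the integrin subunits Itgb3 and Itgb8 by 1.29 (SD 0.85) and 0.74 (SD 0.30), and Neu1, the sialidase of the elastin receptor complex, by 0.54 (SD 0.10). Itgb8 was above background in the knockout on 1 of 3 arrays, so its size is not firm. The other Itgb8 probe read −0.26 ± 0.12 and the other Neu1 probe −0.38 ± 0.12. Neither passed (limma adjusted p = 0.142 and 0.0538 over all probes). Itga5 (0.42 ± 0.17) was called higher but lost the call in 10 of 15 alternatives. Without replicate 2 and without replicate 3 the calls of Itgb3 (adjusted p = 0.0845 and 0.116), Itgb8 (0.115 and 0.0597), Neu1 (0.136 and 0.101) and Itga5 (0.135 and 0.224) were lost. Itgb3 also lost its call with no filter on dim probes (adjusted p = 0.0802) and with the mean of its probes, at −0.78 (0.0653), since its second probe read −0.27 ± 0.28. Neu1 also lost it with median centring (0.213) and the scanner software's ratio (0.0526). Glb1 and Ctsa, partners of Neu1 in that complex, read −0.20 ± 0.25 and 0.23 ± 0.14 and were not called, although another Glb1 probe read −0.48 ± 0.19 and passed (limma adjusted p = 0.0415 over all probes) and another Ctsa probe read −0.19 ± 0.17.

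Of 15 genes of TGF-beta signalling, whose latent ligands are stored on microfibrils, 2 rose and 7 fell, with a median of −0.47. The ligands Tgfb2 (−2.56 ± 0.04) and Tgfb3 (−2.03 ± 0.52) were 5.90-fold and 4.08-fold lower, and Tgfb1 read −0.34 ± 0.10 and was not called. The receptor Tgfbr2 fell by 1.12 (SD 0.22), the co-receptor Eng, also an endothelial marker here, rose 5.68-fold (2.51 ± 0.24), and Tgfbr1 rose by 0.53 (SD 0.09). The targets Tgfbi (−2.44 ± 1.00) and Ccn2 (−1.63 ± 1.15) were called lower. Tgfbr1 and Ccn2 lost the call without replicate 2 (adjusted p = 0.101 and 0.193) or without replicate 3 (0.14 and 0.216). Tgfbr1 also lost it with the mean of its probes, where it read 0.28 (adjusted p = 0.0919). Ccn2 lost it in 6 of 15 alternatives, among them median centring (0.088), the scanner software's ratio (0.0503), no filter on dim probes (0.0917) and the mean of a gene's probes (0.0541).

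The members differed in how far their values depended on the processing. Fbln1 and Loxl1 passed in all 15 alternatives and Lox in 14. Eln passed in 13, with values from −1.39 to −0.63. Fbn1 (first probe) and Fbln5 passed in none, Emilin1, Fbln2 and Mfap5 passed in 2 each, without replicate 1 and with array weights, and Fbn2 passed in 1 of the 12 in which it could be tested.

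**Figure D5:**
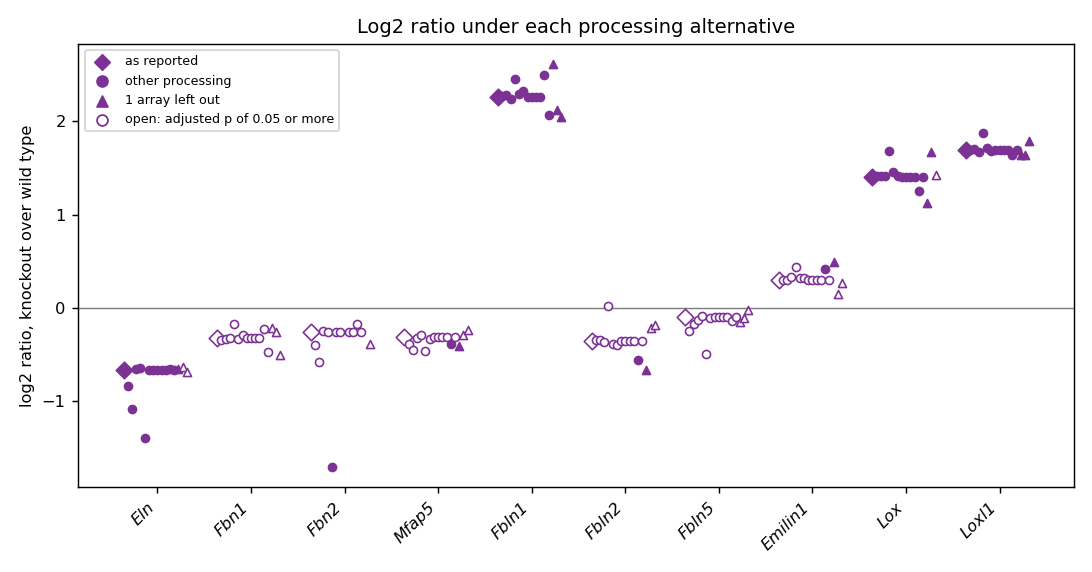
Log2 ratio of knockout over wild type (vertical axis) of each member as reported (diamond), under the other processing choices (circles) and with 1 array left out (triangles), filled where the limma adjusted p over all probes was under 0.05. The filled points of Fbln1, Lox and Loxl1 stay above 1, and Eln and Fbn2 reach their lowest values, −1.39 and −1.70, with the ratio of the scanner software.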

How the data were processed

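RNA of Pim1 knockout (Cy5) and wild-type (Cy3) cells was read on 3 two-colour arrays of 1 slide and 1 scan. The deposited files held pixel intensity and local background intensity per spot in both channels and a log10 ratio of red over green, which Agilent Feature Extraction had written (version 9.5.3.1, per the submitters' processing notes). The deposited value table held the same log10 ratio (largest difference 0), so its scale and direction were known.

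Mean intensities were corrected with normexp (offset 50), which pulls ratios of dim probes towards 0, and normalised within arrays by loess, with 1639 control spots and 121 to 140 flagged spots per array at weight 0. No spot was saturated. Channel levels came from a further Aquantile step and were compared within a probe. The sums over marker lists are the exception: they add intensities of different probes, so bright probes weigh most. A fold given as "at least" takes, for the undetected channel, the lowest level of any probe rated above background there, or the probe's own level where higher. This limit is not strict and is open to dye bias. The mean log2 ratio over the arrays was compared with 0 by limma (version 3.58.1, R 4.3.3), with Benjamini-Hochberg adjustment over 25076 tested probes for the members and over 13447 genes, each by its brightest tested probe, for counts and for genes that are not members. Errors are SDs over 3 arrays, whose number limits the precision. The pipeline was tested on simulated data. Probes were named by RefSeq accession (24375), symbol (6301) or synonym (2426), and 8072 had no name. Gene values leave out 294 probes that face the opposite strand. Coordinates are those of the array files; the exon or UTR of each probe was not analysed here.

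All members were named, and up to 5 called genes per direction of each pathway list by size of change; other family and pathway genes were chosen after their values were seen. Members and lists were chosen with earlier results of these data known. The alternatives changed the background (no subtraction, or an offset of 0), the signal (median pixels), the normalisation (median centring, the software's ratio, scaling between arrays), the filter (none, or both channels above background), the flags (spots kept), the variance model (trend and robust), the array weights, the probe of a gene (mean of its probes), and the arrays (without each replicate in turn).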

Additional observations from a re-analysis of the deposited data

How the results depend on the processing

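The number of members called lower was 1, and became 2 with the scanner software's ratio, 3 with array weights (which gave array 1 a weight of 0.408) and 0 to 3 with 1 replicate left out. The number of members called higher was 3, and 2 to 4 with 1 replicate left out. Over all genes 2958 were called, 4617 with array weights and 834 to 5682 with 1 replicate left out. Pathway genes called higher numbered 12, and 5 to 17 with 1 replicate left out. The Fbln2 log2 ratio turned from −0.35 to 0.026 with median centring. The cause of these changes was not tested. Each array holds both genotypes, so the log2 ratio compared with 0 already pairs them, and with 1 group of arrays no further pairing was possible. Signal over background limits Eln, Fbn2, Fbln5 and Mfap5, whose ratios are pulled towards 0 by the offset. With 3 arrays no outlying array could be tested for.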
